A study of Saccharomyces cerevisiae with 61 samples.

Results

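The comparison is the release of the budding yeast strain labelled galsicΔP from mating pheromone arrest, 40 min against 0 min. Its arrays were chosen by their titles, which name the strain, the time and the extract on each dye. It rests on 6 of the 61 2-colour arrays of the series, those that form the first hybridisation loop of the strain, and on 4 of 56 RNA extracts (2 at 0 min and 2 at 40 min). A second loop of 4 arrays holds the second 40 min extract and no 0 min extract, so that extract was placed through the 4 groups that both loops share. The placement sets the mean of the 4 groups in the second loop to their mean in the first, so the distance of the second 40 min extract from 0 min comes from the first loop and is no second measurement of it. All strains were made in BY4741, a laboratory strain of mating type a, and all galsicΔP extracts are untreated. The groups are the parent at 0, 40 and 100 min and its nrm1Δ derivative at 40 and 100 min, each with 2 extracts. The wild type and rad53Δ, which lacks a checkpoint kinase, serve below as reference releases, untreated, at 30 against 0 min, with 1 extract at each time. The labels do not expand the name galsicΔP, and no label gives the medium or names galactose. Nor do they say whether the 2 extracts of a group came from separate cultures, so the spread behind the p-values may be technical. That spread was pooled over extracts of all strains, drug-treated ones included. Of its residual degrees of freedom, 4 came from galsicΔP, 12 from the wild type and 4 from rad53Δ.

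Haploid cells of mating type a that sense the alpha pheromone stop in G1, before Start, and turn on genes for conjugation through the transcription factor Ste12. When the pheromone is removed, G1 cyclins and the transcription factors SBF and MBF carry the cells into S phase. Sic1 is an inhibitor of the cyclin-dependent kinase that drives S phase, and its loss lets replication start. Galactose acts through Gal3, Gal80 and Gal4 to turn on the enzymes that feed the sugar into glycolysis, and glucose represses the same genes.

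Levels below are log2 values relative to the mean of both 0 min extracts, so that the 0 min extracts are mirror images by construction. A ratio is the 40 min mean minus the 0 min mean, with its standard error (SE) from limma, and a gene is said to rise or fall only where its Benjamini-Hochberg adjusted p over all 6249 features was under 0.05. Of these features, 1802 rose (28.8%) and 1781 fell (28.5%), 887 and 671 of them by more than 2-fold. The median over all features was -0.02, and the median SE was 0.17. No intensities come with the ratios, so how bright each spot was is not known. Nor is the logarithm's base given, and the folds hold for base 2 only. On 6 of the 10 galsicΔP arrays, 2 of them in the first loop, both dyes carry the same genotype entry, against titles and source names that put a different strain on each dye, and the titles were followed. On the 3 parent arrays of 1 slide whose labels agree throughout, 0 of the features that passed had the opposite sign. The medians were 4.20 for ribosomal protein genes and -3.19 for mating genes. These arrays are part of the first loop and entered the main fit, in which the features had passed. The shared sign is thus largely built in and is no independent check of the labels. When every array was set to the same spread, 475 features rose and 276 fell. The galsicΔP arrays with a 0 min extract were wider (median absolute deviation 0.79 to 1.03) than the others (0.29 to 0.58). That setting divides each array by its own width, so it shrinks the ratios to 0 min relative to the others by construction. Smaller ratios and fewer calls under it are therefore in part built in. Without the first 40 min extract, 1323 features rose and 1178 fell. Here and below, an extract was left out only after the levels were made from all arrays. Its arrays thus still took part in the levels of the other extracts.

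The strain labels were checked first. NRM1, the corepressor gene deleted in the derivative, stood at -0.22 and 0.22 at 0 min and at 2.33 and 2.13 at 40 min in the parent, against -1.15 and -1.44 at 40 min in nrm1Δ. All nrm1Δ extracts lay below all parent extracts. The arrest and induction markers moved in the direction of the name of the experiment. GAL1 and GAL7 rose, SIC1 rose, and FIG1, a gene of mating, fell. BY4741 carries deletions at HIS3, LEU2, MET17 and URA3, yet HIS3 rose by 1.46 ± 0.10 (adjusted p = 3.3e-12), LEU2 by 2.59 ± 0.37 (adjusted p = 1.7e-06) and MET17 by 1.09 ± 0.24. URA3 did not pass (0.29 ± 0.34). With every array set to the same spread, LEU2 (0.93, adjusted p = 0.059) and MET17 (-0.10) did not pass either. The source of these signals was not tested.

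The genes of galactose use showed the largest rises among named features. GAL7, GAL1, GAL10 and GAL2 took the first 4 places, at 73-fold to 368-fold. Of the 12 galactose genes listed, 9 rose, 1 fell and 2 did not pass. Over all features 28.8% rose and 28.5% fell. The median ratio of the galactose genes was 1.69, against -0.02 over all features. With every array set to the same spread the median was 0.74, 6 rose, and GAL4, the member that fell, did not pass (-0.14). In a bulk extract, a change in every cell and a change in the share of cells with a transcript cannot be told apart.

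GAL2 encodes the galactose permease. It stood at 0.53 and -0.53 in the 0 min extracts and at 6.37 and 6.0 at 40 min, a ratio of 6.19 ± 0.31 (adjusted p = 6.5e-15). The 3 enzyme genes of the Leloir pathway lie together on chromosome II. GAL1, the galactokinase, stood at 0.81 and -0.81 at 0 min and at 8.28 and 7.73 at 40 min (ratio 8.0 ± 0.41, adjusted p = 1.3e-14). GAL7, the uridylyltransferase, stood at 0.48 and -0.48 and then at 8.73 and 8.31 (ratio 8.52 ± 0.27, adjusted p = 9.9e-19). GAL10, the epimerase and mutarotase, stood at 0.71 and -0.71 and then at 7.52 and 7.14 (ratio 7.33 ± 0.35, adjusted p = 1.8e-15). For these genes the first 0 min extract was the higher, and the 0 min extracts differed by less than the ratio. On the single array that sets the first 40 min extract directly against the first 0 min extract, the ratio was 7.84 for GAL1 and 8.55 for GAL7. On the arrays of 100 min over 0 min, GAL1 was 8.83 in the parent (second 0 min extract) and 5.37 in nrm1Δ (first). The SE does not include the misfit of the array ratios around the loop. PGM2, the phosphoglucomutase that joins the pathway to glycolysis, rose by only 0.56 ± 0.23 (adjusted p = 0.037).

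The regulators moved less than the enzymes. GAL3, the galactose sensor, stood at 0.40 and -0.40 at 0 min and at 2.62 and 2.67 at 40 min, a rise of 2.65 ± 0.17. GAL80, the inhibitor of Gal4, stood at 0.26 and -0.26 and then at 2.10 and 2.12, a rise of 2.11 ± 0.15. GAL4, the activator itself, stood at 0.02 and -0.02 and then at -0.67 and -0.53, and fell by 0.60 on the log2 scale (adjusted p = 2.2e-05). Of 4 other Gal4 targets, MTH1 rose by 0.75 and FUR4, the uracil permease, by 1.27. GCY1 (0.44, adjusted p = 0.057) and PCL10 (0.11) did not pass.

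The ratio of 100 over 40 min was -0.20 for GAL1, -0.07 for GAL7 and -0.91 for GAL3. That comparison shares the 40 min extracts with the main one. In the wild type and rad53Δ releases the ratio was 0.88 and -0.01 for GAL1 and 0.22 and -0.09 for GAL7, each from single extracts and without a test.

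**Figure D1:**
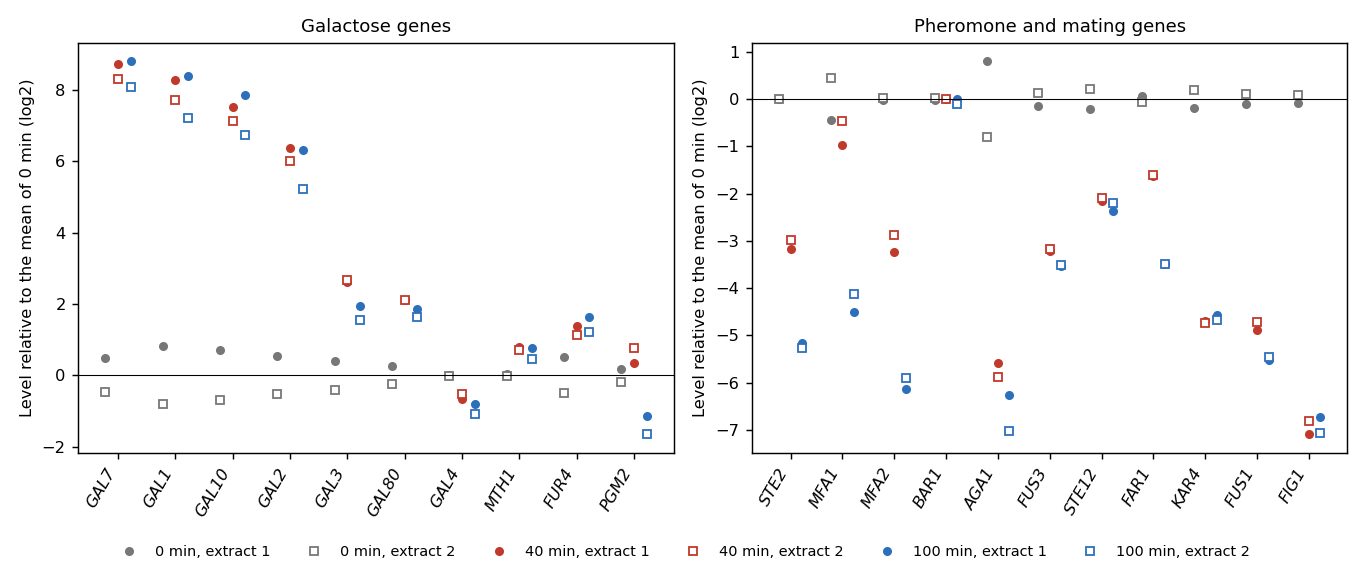
Levels of galactose genes (left) and of pheromone and mating genes (right) in the parent extracts at 0, 40 and 100 min, on a log2 scale relative to the mean of the 0 min extracts (filled circles extract 1, open squares extract 2). GAL1 lies at 8.28 and 7.73 and FIG1 at -7.09 and -6.82 at 40 min, while BAR1 lies near 0 in every extract.

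Genes of the pheromone response and of mating fell almost as a whole list. Of 30 members, 29 fell and 1 did not pass, against 28.5% of all features that fell. Their median ratio was -3.14, against -0.02 over all features. Of the 12 largest falls among named features whose extracts did not overlap, 10 belong to this list. Extracts without overlap were common, since 2395 of all 6249 features were lower in this way and 2326 were higher. Lack of overlap is thus a weak filter. With every array set to the same spread, 18 members fell and the median was -0.95, with STE2 (-0.57) and FAR1 (-0.07) among those that did not pass.

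The largest falls were in the genes of cell fusion and morphogenesis, 14 of 14 of which fell, with a median of -4.90. FIG1, a membrane protein of mating cells, stood at -0.09 and 0.09 at 0 min and at -7.09 and -6.82 at 40 min. Its ratio of -6.95 ± 0.21 (adjusted p = 5.5e-19) is a 124-fold fall. PRM6 stood at -0.37 and 0.37 and then at -5.84 and -5.79, and fell by 5.81. FUS1, needed for the fusion of mating cells, stood at -0.10 and 0.10 and then at -4.89 and -4.72, and fell by 4.81 ± 0.23. FUS2, which acts at the same step, fell by 5.34, PRM1 by 5.29, PRM2 by 4.97, PRM3 by 5.26, PRM4 by 5.35 and ASG7 by 4.84. The nuclear fusion genes fell too, KAR5 by 4.31, the kinesin gene KAR3 by 2.04 and that of its partner, CIK1, by 3.85.

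All 9 signalling genes fell, with a median of -1.71. FUS3, the mitogen-activated kinase of the pathway, stood at -0.14 and 0.14 at 0 min and at -3.22 and -3.16 at 40 min, and fell by 3.19 ± 0.14 (adjusted p = 3.1e-16). STE12, the transcription factor, stood at -0.21 and 0.21 and then at -2.15 and -2.10, and fell by 2.12. KAR4, its partner at karyogamy genes, fell by 4.72. SST2, which damps the G protein signal, fell by 2.79, and FAR1, which holds the G1 cyclin kinase in check during arrest, by 1.61. The G protein subunits fell by 1.71 for GPA1, 0.59 for STE4 and 0.71 for STE18.

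Among pheromones, receptor and surface proteins, 6 of 7 genes fell. STE2, the receptor for the alpha pheromone, stood at 0.00 in both 0 min extracts and at -3.18 and -2.98 at 40 min, and fell by 3.08 ± 0.21. AGA1, the anchor of the a-agglutinin, stood at 0.80 and -0.80 and then at -5.57 and -5.89, and fell by 5.73 ± 0.39. Its 0 min extracts were the most unlike of those named here for mating. Of the a-factor genes, MFA2 fell by 3.06 and MFA1 by 0.72 (adjusted p = 0.025). BAR1, the protease that degrades the alpha pheromone, stood at -0.02, 0.02, 0.00 and 0.00, a ratio of 0.00 ± 0.10. Its ratio lay between -0.16 and 0.12 on all 10 galsicΔP arrays and between -0.16 and 0.26 on the wild-type arrays.

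From 40 to 100 min the list had a further median ratio of -0.36. It was uneven, with -3.60 for MFA1, -2.13 for STE2 and -1.88 for FAR1, against 0.07 for FIG1 and 0.10 for KAR4. In the wild type and rad53Δ the list median at 30 over 0 min was -1.62 and -2.12. Markers of other cell types were read beside the mating genes. Of 4 genes specific to alpha cells, SAG1, the alpha-agglutinin, fell by 2.58 and the receptor STE3 by 0.50, while MF(ALPHA)1 (0.28) and MF(ALPHA)2 (-0.13) did not pass. The median over these 4 genes was 0.00 in both 0 min extracts and -0.32 and -0.31 at 40 min. Of 10 genes of meiosis and sporulation, IME1 rose by 0.68, IME2, SPO11 and HOP1 fell by 1.35, 1.0 and 0.85, and 6 did not pass, against 28.8% of all features that rose and 28.5% that fell. With all arrays set to the same spread, limma called 0 of the 10 (0 were higher and 3 lower at an unadjusted p under 0.05). The median over these 10 genes was -0.06 and 0.06 at 0 min and -0.10 and -0.15 at 40 min, and ratios do not show whether a marker is at 0. The part of such cells in the results was not tested.

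Ribosomal protein genes formed the widest change between 0 and 40 min. Release from arrest and any change of medium cannot be told apart in this comparison. Of 129 genes of the cytoplasmic ribosome, 126 rose, against 28.8% of all features that rose. Their median ratio was 4.10, or 17.1-fold. Among named features, 79 of the 100 largest rises were theirs. The lower and upper quartiles were 3.32 and 4.61. The list medians were 0.11 and -0.11 in the 0 min extracts and 4.08 and 4.00 at 40 min.

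RPS9B, a protein of the small subunit, led them. It stood at 0.56 and -0.56 at 0 min and at 5.87 and 5.63 at 40 min, a ratio of 5.75 ± 0.22 (adjusted p = 2.6e-17). RPL9A of the large subunit stood at 0.29 and -0.29 and then at 5.62 and 5.27 (ratio 5.44 ± 0.19). RPL21A rose by 5.60, RPL5 by 5.39, RPS7A by 5.30 and RPL24A by 5.15. ASC1, a scaffold protein of the small subunit outside the list, rose by 5.22 ± 0.23. The 3 genes that did not pass were RPL15B (0.23), RPL41A (0.99) and RPL41B (1.03). Many of these genes have near-identical paralogs, and a probe may read both copies.

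List medians in the parent at 100 min were 4.16 and 4.09, and those in nrm1Δ at 40 min were 4.07 and 3.91, relative to the same 0 min extracts. In the wild type and rad53Δ the list median at 30 over 0 min was -0.10 and 0.11. Setting all arrays to the same spread left 124 rises and a median of 1.49. All 4 arrays with a 0 min extract are in the first loop, and the 0 min extracts were not measured in the second.

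Genes of ribosome assembly in the nucleolus rose as well, by less. Of 36 members, 31 rose and 5 did not pass, against 28.8% of all features that rose. Their median was 1.21. GAR1 and NOP56, proteins of the particles that modify ribosomal RNA, rose by 3.00 and 2.58, and NOP1, the methyltransferase, by 2.12. NSR1 (0.02), DBP2 (-0.18), SPB4 (-0.15), IMP4 (0.22) and SPB1 (0.69) did not pass. The list median was 0.40 in the wild type and 0.70 in rad53Δ. With all arrays set to the same spread, 6 members rose and the median was 0.35.

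**Figure D2:**
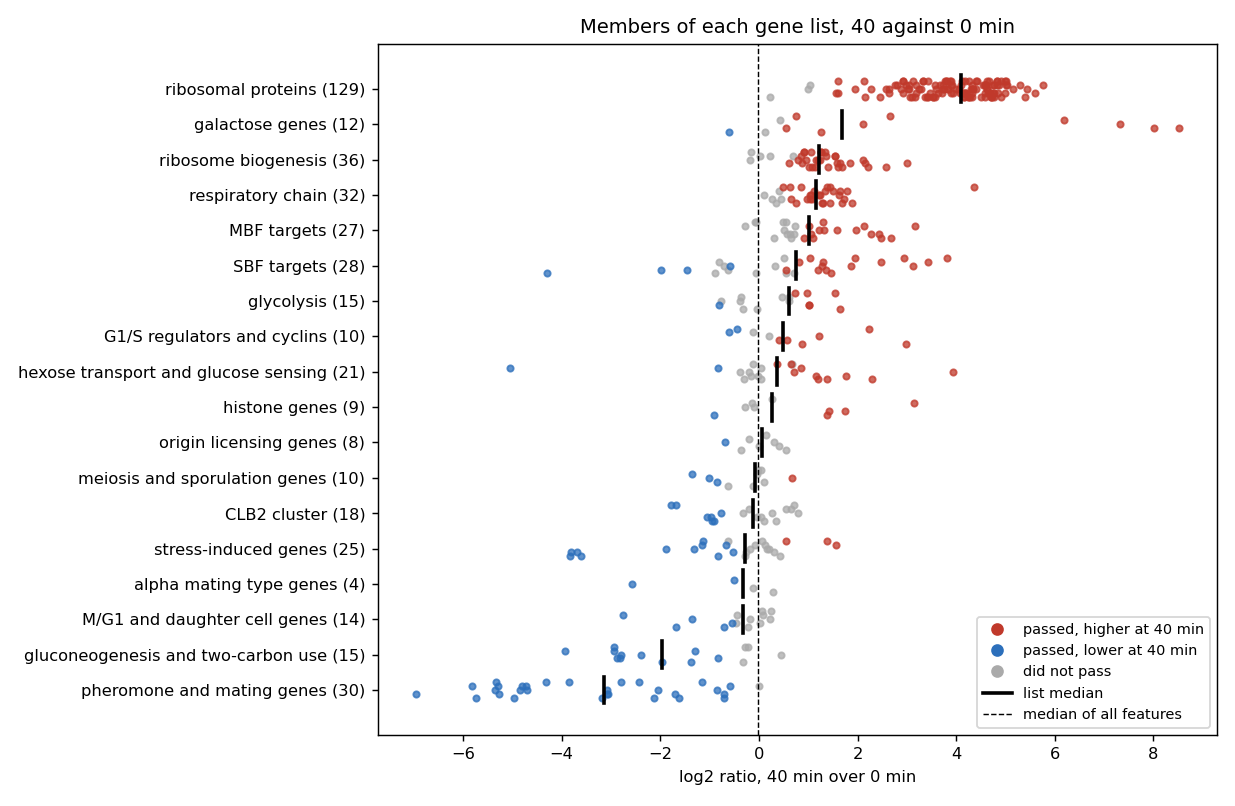
The log2 ratio of 40 over 0 min for each measured member of the 18 gene lists (number of members in brackets), with red for genes that rose, blue for genes that fell and grey for those that did not pass. Black bars give list medians and the dashed line the median of all features, so that ribosomal protein genes at 4.10 and mating genes at -3.14 mark the ends.

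Genes of carbon use changed by branch. Of 15 genes of gluconeogenesis and of the use of acetate and ethanol, 11 fell and 4 did not pass. Over all features 28.5% fell. The list median was -1.96. That median was -1.14 without the first 40 min extract, -1.19 without the first 0 min extract, -2.71 without the second 0 min extract and -0.37 with all arrays set to the same spread. Of 32 genes of the respiratory chain and ATP synthase, 27 rose and 5 did not pass, against 28.8% of all features that rose. Their median was 1.16. In glycolysis 6 of 15 genes rose, 1 fell and 8 did not pass, against 28.8% of all features that rose and 28.5% that fell.

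FBP1 and PCK1 encode the enzymes particular to gluconeogenesis. FBP1 stood at 0.21 and -0.21 at 0 min and at -2.98 and -2.76 at 40 min, and fell by 2.87 ± 0.42. PCK1 stood at -0.05 and 0.05 and then at -2.89 and -2.72, and fell by 2.80 ± 0.13 (adjusted p = 1.8e-15). SFC1, a mitochondrial carrier, fell by 3.93, the acetate transporter gene ADY2 by 2.94, the regulator SIP4 by 2.93, ADH2, which oxidises ethanol, by 2.81 and ICL1 of the glyoxylate cycle by 2.39. CAT8 (-0.22), the activator of these genes, and ADR1 (0.45) did not pass. The list median at 100 over 40 min was -1.25, and in the wild type and rad53Δ it was 0.04 and -0.05. With all arrays set to the same spread, 4 members fell and FBP1 did not pass (-0.98, adjusted p = 0.12).

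In the respiratory chain CYC1, the main cytochrome c gene, stood at 0.10 and -0.10 at 0 min and at 4.52 and 4.22 at 40 min, a rise of 4.37 ± 0.27. The other members that rose lay between 0.48 for SDH2 and 1.89 for ATP2. QCR10, COX7, COX9, COX13 and SDH3 did not pass. In the wild type the list median was -0.35. With all arrays set to the same spread, 13 members rose and the list median was 0.50.

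Of 21 genes of hexose transport and glucose sensing, 10 rose, 2 fell and 9 did not pass, against 28.8% and 28.5% of all features. HXT5, a transporter of slowly growing cells, stood at 0.65 and -0.65 at 0 min and at -5.03 and -5.07 at 40 min, and fell by 5.05 ± 0.27. HXK2, the main hexokinase of cells grown on glucose, stood at 0.28 and -0.28 and then at 4.27 and 3.59, and rose by 3.93 ± 0.28. HXK1 rose by 1.76, and SUC2, the invertase, by 2.29 ± 0.39, with 0 min extracts at 1.0 and -1.0. Among the transporters induced by glucose, HXT2 rose by 1.37, HXT1 by 0.86 and HXT4 by 0.72, and HXT3 did not pass (-0.01). HXT1 and HXT4 no longer passed without the first 40 min extract (adjusted p = 0.13 and 0.12). With all arrays set to the same spread, 2 members rose, and HXK1, HXT1, HXT2 and HXT4 did not pass.

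In glycolysis ADH1 rose by 1.64, FBA1 by 1.54 and the pyruvate kinase gene CDC19 by 1.02, while PDC1 fell by 0.80. The 0 min extracts differed most for ENO2 (1.1 and -1.1) and ENO1 (1.06 and -1.06), neither of which passed. The list median was 0.61, but -0.08 without the second 0 min extract, when 3 members rose, 1.25 without the first 0 min extract and 0.34 without the first 40 min extract. With all arrays set to the same spread the median was 0.12 and limma called 0 members (2 were higher and 1 lower at an unadjusted p under 0.05).

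Of 25 stress-induced genes, 11 fell, 3 rose and 11 did not pass, against 28.5% of all features that fell and 28.8% that rose. TKL2, a transketolase, fell by 3.84, SIP18 by 3.81, and the small heat shock genes HSP26 and HSP12 by 3.70 and 3.60. HSP12 stood at -0.60 and 0.60 at 0 min and at -3.94 and -3.26 at 40 min. GAC1 rose by 1.55 and YGP1 by 1.38. The list median of -0.28 turned to 0.24 when all arrays were set to the same spread, where 3 members fell. From 40 to 100 min the list had a further median of -1.14.

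Genes of the passage from G1 to S rose in part. Of 27 measured targets of MBF (29 listed), the factor that drives replication genes, 15 rose and 12 did not pass, with a median of 1.01. Of 28 targets of SBF, which drives the G1 cyclins and cell wall genes, 15 rose, 4 fell and 9 did not pass, with a median of 0.75. Over all features, 28.8% rose and 28.5% fell. The SBF median was 0.46 without the first 40 min extract and 0.08 with all arrays set to the same spread, where the MBF median was 0.45. The wild type and rad53Δ medians at 30 over 0 min were 1.65 and 1.4 for MBF targets and 1.76 and 1.35 for SBF targets. Without the first 40 min extract, 9 MBF and 6 SBF targets rose, and with all arrays set to the same spread 1 SBF target rose and no MBF target passed (4 were higher at an unadjusted p under 0.05). With the galsicΔP extracts fitted alone, 23 MBF targets rose. Of the regulators and targets described next, SIC1 and CLN3 also passed with all arrays set to the same spread. NRM1, SWI6, CLN1, CLN2, PCL1, CLB5, CLB6, RNR1, CDC21, POL1, CDC45, MCD1 and WHI5 did not. PCL2, CIS3, GAS1 and GIC2 are not given singly under that setting, where 1 SBF target rose and 2 fell in all.

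Among G1/S regulators, SIC1 stood at -0.29 and 0.29 at 0 min and at 2.74 and 3.23 at 40 min, a rise of 2.99 ± 0.34 (adjusted p = 4.5e-08), or 7.93-fold. It stood at 3.42 and 2.93 at 100 min. Its ratio was -0.28 in the wild type and 0.12 in rad53Δ, without a test. The array does not tell a transcript of the native SIC1 gene from that of any other copy. CLN3, the most upstream G1 cyclin, stood at 0.11 and -0.11 and then at 1.26 and 1.17, and rose by 1.21 ± 0.22, against -0.79 and -0.69 in the wild type and rad53Δ. SWI4, the DNA-binding subunit of SBF, did not pass (0.21 ± 0.31), and SWI6, the subunit it shares with MBF, fell by 0.62. WHI5, the inhibitor of SBF, stood at 0.00 in both 0 min extracts and at -0.27 and -0.62 at 40 min. It fell by 0.45 ± 0.15 (adjusted p = 0.016), but did not pass in 5 of the other settings, the first loop alone among them (adjusted p = 0.12). NRM1 rose by 2.23 ± 0.28.

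The G1 cyclin CLN1 stood at 0.53 and -0.53 at 0 min and at 3.97 and 2.88 at 40 min, a rise of 3.43 ± 0.59. CLN2 stood at 0.33 and -0.33 and then at 2.30 and 1.59, a rise of 1.94 ± 0.45, which did not pass without the first 40 min extract (1.36, adjusted p = 0.079). PCL1, a cyclin of the Pho85 kinase, rose by 3.82 ± 0.75. PCL2, its relative, went the other way, from -0.09 and 0.09 to -4.03 and -4.57, and fell by 4.30 ± 0.25. It was also lower in the wild type (-1.39) and rad53Δ (-1.54). Of the other SBF targets, CIS3 and GAS1 of the cell wall rose by 3.13 and 2.94, and GIC2, an effector of the polarity switch Cdc42, fell by 1.99.

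The S phase cyclins CLB5 and CLB6 are MBF targets. CLB5 stood at -0.05 and 0.05 at 0 min and at 1.37 and 1.25 at 40 min, a rise of 1.31 ± 0.22. CLB6 stood at 0.06 and -0.06 and then at 3.05 and 2.31, a rise of 2.68 ± 0.43. RNR1, the large subunit of ribonucleotide reductase, stood at 0.85 and -0.85 and then at 3.80 and 2.55. Its rise of 3.17 ± 1.15 (adjusted p = 0.021) had the widest error of the genes named here and did not pass without the first 40 min or the second 0 min extract (adjusted p = 0.32 and 0.17). CDC21, the thymidylate synthase, rose by 2.43 ± 0.38, POL1, the catalytic subunit of polymerase alpha, by 2.48 ± 0.38, CDC45, of the replicative helicase, by 1.59 ± 0.32 and MCD1, a cohesin subunit, by 1.96 ± 0.41. From 40 to 100 min the MBF list had a median ratio of -0.58. At 40 min the nrm1Δ derivative exceeded the parent by a median of 0.81 over MBF targets and of 1.12 over SBF targets.

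**Figure D3:**
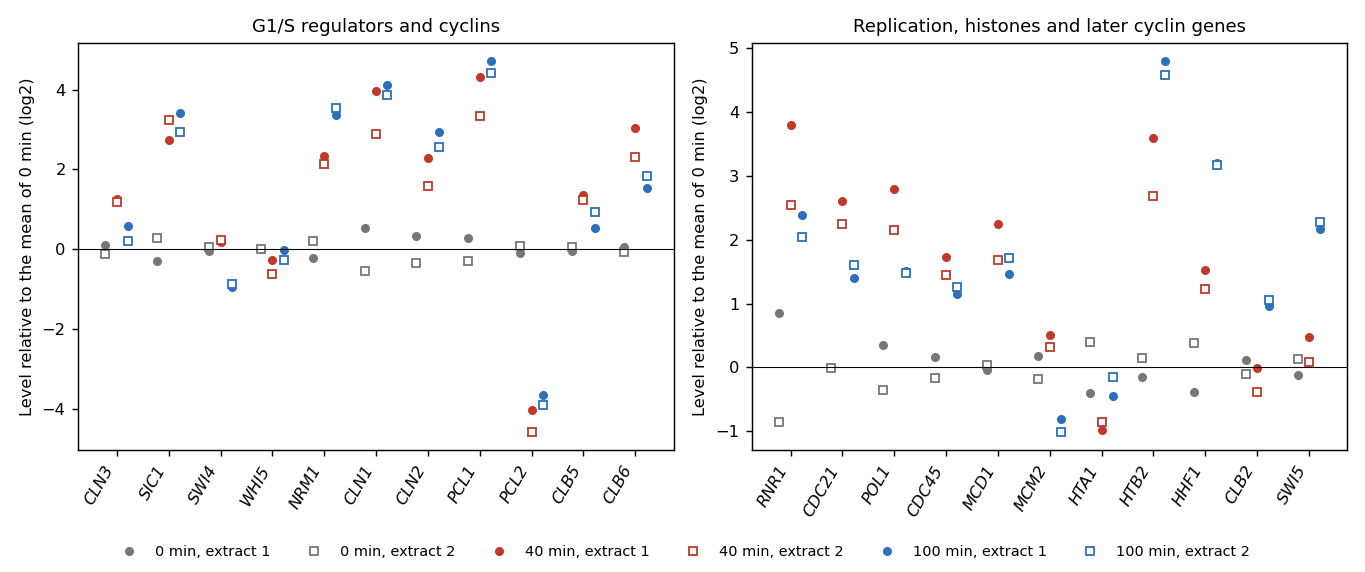
Levels of G1/S regulators and cyclins (left) and of replication, histone and later cell cycle genes (right) in the parent extracts at 0, 40 and 100 min, on a log2 scale relative to the mean of the 0 min extracts (filled circles extract 1, open squares extract 2). SIC1 lies at 2.74 and 3.23 and PCL2 at -4.03 and -4.57 at 40 min.

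Histone genes, which are transcribed in S phase, did not move together at 40 min. Of 9 genes, 4 rose, 1 fell and 4 did not pass, against 28.8% of all features that rose and 28.5% that fell. By limma 0 of the 9 passed with all arrays set to the same spread (0 at an unadjusted p under 0.05). HTB2 stood at -0.15 and 0.15 at 0 min and at 3.58 and 2.69 at 40 min, and rose by 3.13 ± 0.29. HTA2, HHF1 and HHF2 rose by 1.74, 1.37 and 1.42. HTA1 stood at -0.40 and 0.40 and then at -0.97 and -0.85, and fell by 0.91 ± 0.27, which did not pass without the second 0 min extract or the first 40 min extract (adjusted p = 0.16 and 0.098). HTB1 (-0.29), HHT1 (-0.13), HHT2 (0.27) and the linker histone HHO1 (-0.11) did not pass. The list median of 0.27 turned to -0.11 without the first 0 min extract and to -0.25 with all arrays set to the same spread. The same median was 3.45 in the wild type and 2.21 in rad53Δ at 30 over 0 min, and 1.44 in the parent at 100 over 40 min.

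Of 18 measured genes of the CLB2 cluster (19 listed), which is transcribed before mitosis, 7 fell and 11 did not pass, against 28.5% of all features that fell. The median was -0.12, but -0.30 without the first 40 min extract, -0.03 without the second and -0.29 with all arrays set to the same spread. CLB2, the main mitotic cyclin, stood at 0.11 and -0.11 at 0 min and at -0.01 and -0.39 at 40 min, and did not pass (-0.20 ± 0.38). Neither did the polo kinase gene CDC5 (0.35 ± 0.33) nor SWI5, a factor of the next G1 (0.27 ± 0.45). CDC20, an activator of the anaphase-promoting complex, stood at -0.28 and 0.28 and then at -1.88 and -1.70, and fell by 1.79 ± 0.31, and DBF2 of the mitotic exit network fell by 1.69. At 100 over 40 min the ratio was 1.21 for CLB2 and 1.95 for SWI5. Without the first 40 min extract 4 members of the cluster fell, and with all arrays set to the same spread limma called 0 members (0 at an unadjusted p under 0.05), with CDC20 at -0.43.

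Of 14 measured genes of the M/G1 boundary and of daughter cells (15 listed), 5 fell and 9 did not pass, against the same 28.5%, with a median of -0.33. TEC1, a partner of Ste12, fell by 2.75 ± 0.15, AMN1 by 1.69 and SCW11 by 1.35. The cell separation genes CTS1 (-0.18) and DSE2 (0.07) did not pass. Without the first 40 min extract 3 members fell and the median was -0.20, and with all arrays set to the same spread 1 fell and it was -0.17. Of 8 genes that license replication origins, TAH11 fell by 0.69 and 7 did not pass, among them MCM2 (0.41 ± 0.25) and CDC6 (-0.35 ± 0.19). The median of that list was 0.07, or 0.49 with all arrays set to the same spread, at 40 over 0 min and -1.25 at 100 over 40 min.

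Of the 24 genes with the largest rises and falls, ASC1, YHB1 and CHA1 stand in none of the lists. YHB1, the flavohemoglobin that removes nitric oxide, stood at 0.21 and -0.21 at 0 min and at 5.79 and 5.61 at 40 min, and rose by 5.70 ± 0.31, which did not pass with all arrays set to the same spread (2.10, adjusted p = 0.058). CHA1, the serine and threonine deaminase, stood at -0.19 and 0.19 and then at -5.08 and -4.79, and fell by 4.94 ± 0.21.

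The medians of the lists in the other strains' releases, at 30 min, are set beside those of galsicΔP without a test, since the wild type and rad53Δ entered with 1 extract at each time, and their times and hybridisations differ. The mating list was negative and the MBF and SBF lists were positive in all 3 strains. The ribosomal protein, galactose, respiratory chain and gluconeogenesis lists had medians between -0.35 and 0.15 in the wild type and rad53Δ, against 4.10, 1.69, 1.16 and -1.96 in galsicΔP.

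**Figure D4:**
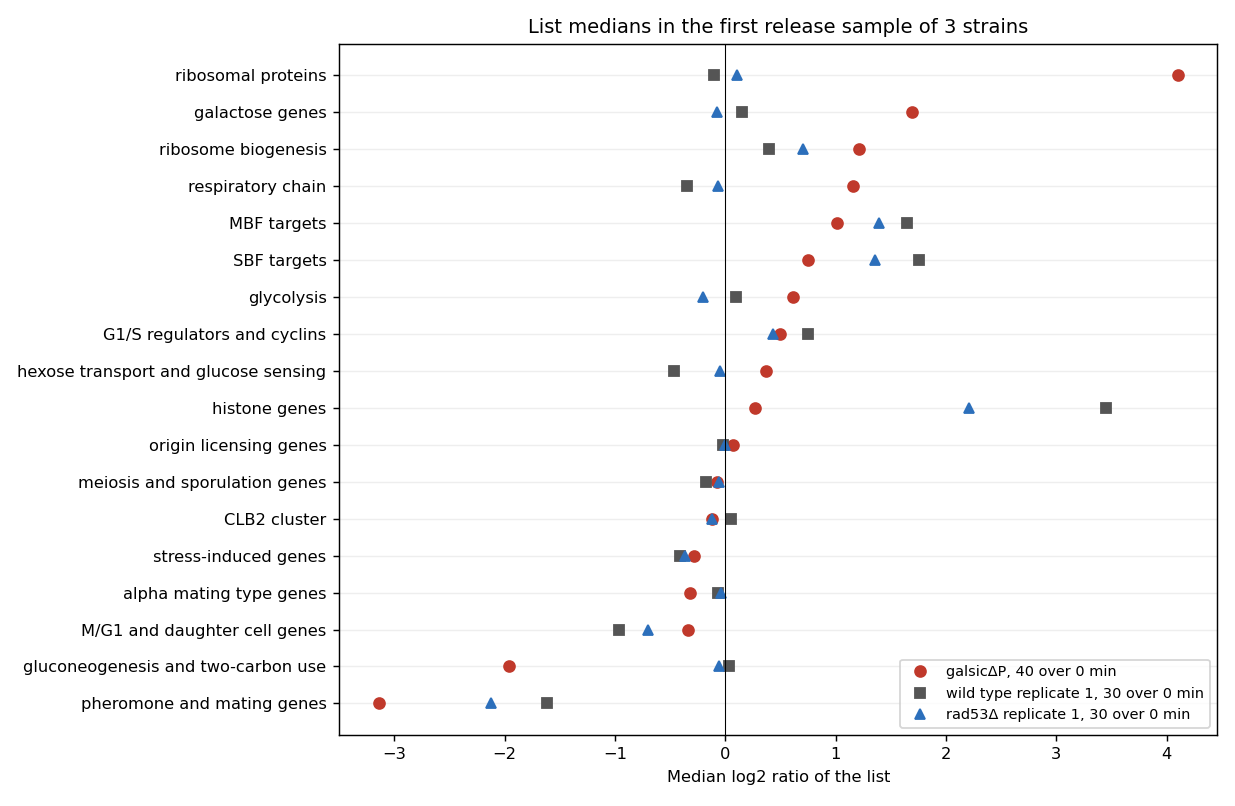
Median log2 ratio of each gene list in galsicΔP at 40 over 0 min (circles, 2 extracts at each time) and in the wild type (squares) and rad53Δ (triangles) at 30 over 0 min (1 extract at each time). Ribosomal protein genes lie at 4.10 in galsicΔP and at -0.10 and 0.11 in the others, and histone genes at 0.27 against 3.45 and 2.21.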

How the data were processed

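Total RNA was hybridised on 2-colour arrays, and the authors deposited log ratios, read here as log2 of the Cy5 over the Cy3 extract. The direction comes from the order of the titles in the labels, and the base from limma, which the submitters' processing notes name without a version. How the arrays were background-corrected and normalised is not given in the sources used here. In all, the table holds 6266 probes, of which 5609 carry 1 gene symbol, 0 several and 657 none, and 0 values are missing. Names were matched to R64 (5608 probes), and probes of the same gene were averaged, which gave 6249 features.

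Array ratios were turned into extract levels by least squares within each strain set, with a dye term. A linear model in limma 3.58.1 (R 4.3.3) then took 54 extracts, all strains together, with group and 14 hybridisation blocks (20 residual degrees of freedom, prior 4.41, prior SD 0.155). The steps were also run on simulated data with independent extract noise and little array noise. Those data hold less misfit around the loops than the real arrays, and their outcome is not used here. The wild-type and rad53Δ extracts at 0 min took no part in the test. Median residual SDs were 0.151 in galsicΔP, 0.169 in the wild type and 0.088 in rad53Δ.

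The members and gene lists were chosen with earlier results of these data known. The text names the 12 largest rises and the 12 largest falls that passed and did not overlap, and genes marked in the lists. Lack of overlap is a weak filter, met by 2326 features that were higher and 2395 that were lower. Other list members are examples picked after their values were seen. Alternatives covered the dye term, array scaling, the spread estimate, blocks, left-out extracts, the first loop alone and probe choice.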

Additional observations from a re-analysis of the deposited data

Results flagged for a closer look

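CHA1, the serine and threonine deaminase gene, had a ratio of -4.94 in galsicΔP at 40 over 0 min, against 1.15 in the wild type and 1.47 in rad53Δ at 30 over 0 min. On the array that sets the first 40 min extract against the first 0 min extract it was -5.02, and through the chain of first-loop arrays to the second 0 min extract it was -5.01. The distance of the second 40 min extract from 0 min is set through the first loop and adds no measurement of it. Among the genes named or listed, CHA1 alone differed from 0 min by more than 1 on the log2 scale in one direction in galsicΔP and in the other direction in both other strains. The difference was not tested, since the other strains entered with 1 extract at each time.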

How the results depend on the processing

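Leaving out the dye term or taking it from all arrays gave the same values by construction, since the loops run in 1 dye orientation. The count of passing features (3583) was 751 with all arrays set to the same spread (475 higher, 276 lower). Of the features that had passed, 77 then took the opposite sign, MET17 among the named genes (-0.10). Unscaled, MET17 was 0.89 on the array of the first 40 min over the first 0 min extract. Through the chain to the second 0 min extract it was 1.28. Equal spread shrinks the arrays with a 0 min extract relative to the others, so fewer calls under that setting are in part built in. Of 73 named genes, 25 others kept their direction and did not pass under it. Under that setting the counts were 2 for hexose rises, 4 for gluconeogenesis falls, 13 for respiratory rises, 18 for mating falls, 1 for SBF rises, 2 for G1/S regulator rises, 1 for M/G1 falls, 6 for ribosome biogenesis rises and 3 for stress falls. By limma 0 glycolysis or MBF genes rose (2 and 4 were higher at an unadjusted p under 0.05) and 0 CLB2 cluster genes fell (0 were lower at an unadjusted p). With galsicΔP extracts alone, 3 glycolysis and 23 MBF genes rose, and with 1 fit on the arrays 3 and 24. Leaving out 1 extract at a time gave 2501 to 3449 passing features, 1323 to 1748 higher and 1178 to 1701 lower, with 3 to 9 glycolysis, 9 to 17 MBF and 6 to 16 SBF rises, 4 to 6 CLB2 cluster falls and 3 to 5 M/G1 falls. The lowest counts came without the first 40 min extract, apart from glycolysis, where the second 0 min extract gave 3 as well. Nothing in the labels ties equal replicate numbers to a shared culture. With the number as a replicate block 3699 features passed. Deviations of equal number at 0 and 40 min correlated at 0.54 across features, with 2 extracts at each time. Ratios around the first loop summed to an SD of 0.81 (2.78 if the arrays were independent), and 0.74 against 1.16 after scaling. The cause of these shifts was not tested.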

Other observations

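Other gene groups, chosen after their values were seen, moved with those above. Of 10 citrate cycle enzyme genes, 9 rose and KGD1 did not pass (0.15), against 28.8% of all features that rose. The list median was 2.03. IDH2, a subunit of isocitrate dehydrogenase, stood at 0.23 and -0.23 at 0 min and at 4.99 and 4.55 at 40 min, a rise of 4.77 ± 0.16, and ACO1, the aconitase gene, rose by 3.89. In the wild type and rad53Δ the ratio of IDH2 was 0.30 and -0.96.

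Of 43 genes of the mitochondrial ribosome, 37 rose, 1 fell and 5 did not pass. Over all features 28.8% rose and 28.5% fell. The list median was 0.86, against 4.10 for the cytoplasmic ribosome. Of 9 translation elongation factor genes, 7 rose, against the same 28.8%, with a median of 2.69. HYP2 was counted as a rise (0.54), though its first 40 min extract (0.16) lay below the second 0 min extract (0.29). TEF4 rose by 3.40, EFB1 by 3.03 and YEF3 by 2.97. TEF2 (0.55) and CAM1 (0.03) did not pass.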
